A study of Homo sapiens with 22 samples.

Results

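The regions described here are stretches of K562 chromatin that carried a peak of H3K27ac, an acetylated lysine in the tail of histone H3, before PMA treatment and after 6 h of it, and carried none after 72 h. They were chosen from the peak lists of the 6 H3K27ac libraries: a region of the deposited H3K27ac table on chromosomes 1 to 22 or X was taken when it overlapped, by at least 1 base, a peak of both 0 h libraries and of both 6 h libraries and a peak of neither 72 h library. The rule gave 606 regions, called members below, of 95436 in the table, 94896 of them on those chromosomes. K562 is an established human leukemia line with erythroid features, labelled wild type here. PMA is a phorbol ester that activates protein kinase C, and it is used to push this line toward a megakaryocyte-like state. Every group is labelled with the same 25 nM dose, and the groups differed in the time in PMA. For H3K27ac, Jun and CTCF 3 time points (0, 6 and 72 h) exist, and for Rad21 the first and last of them. Each of the 11 groups has 2 libraries. The 0 h groups carry the same PMA label with a time of 0 min. The titles abbreviate the assay in a way taken here as CUT&RUN, in which an antibody directs a nuclease to the bound protein or mark and the DNA cut loose is sequenced, and cells had been fixed in 1% formaldehyde for 10 min. All libraries come from 1 cell line, and nothing in the labels says that replicates were separate cultures, so p-values measure only the spread between these libraries.

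Total counts in regions ran from 12634261 to 27266241 per H3K27ac library, from 4766421 to 18883962 for Jun, from 2553677 to 6068421 for CTCF and from 4398797 to 7285286 for Rad21. The 72 h libraries held the largest totals for H3K27ac and for Jun. The mitochondrial share of the Jun counts was lowest at 72 h (9.07 and 8.58%), against 24.0 and 27.7% before PMA and 21.3 and 18.1% after 6 h; its part in the results below was not tested. Replicate libraries of each group differed by more than counting noise, by a chi-square that was 2.15 to 6.74 times its degrees of freedom. At 0 h, H3K27ac peaks of both libraries lay within 1000 bases of 7 of 9 marker genes of the line, GATA1 and HBE1 being the others. This count covers these 9 genes and does not set the line apart from other blood cells.

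H3K27ac is deposited by the acetyltransferases p300 and CBP at active promoters and enhancers, and it is removed by histone deacetylases. Jun pairs with Fos proteins to form AP-1, which binds enhancers and is strongly induced by phorbol esters. Rad21 is a subunit of the cohesin ring, which extrudes chromatin loops, is halted at sites of the insulator protein CTCF and is also found at enhancers and promoters.

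Most members lay away from gene starts, and sequence could be read only in promoter windows at RefSeq start sites (build GRCh38.p14). The stretches printed are the 250 bases before the start site. Of the 96 pairs of a member and a promoter window (250 bases before to 50 after a start site, both ends included), 19 had all 250 upstream bases inside the member and outside every gene span. A tested Jun region covered 10 of these, and Jun was called lower at 72 h at 9. The 6 sequences below are the 4 of these 9 with the lowest Jun log2 fold change at 72 h and the 2 others with the highest H3K27ac at 0 h, and were chosen after their values were seen; they show promoters where Jun was called lower at 72 h. H3K27ac was lower at 72 h than at 0 h at 5 of them under all 3 scalings described below, and at PARP12 the direction depended on the scaling. Capitals mark matches, on either strand, to TGTGGT (RUNX) or CACACCC (KLF); TGANTCA (AP-1), AGATAA (for GATA factors) and ACAGGAA (for ETS factors) were also searched and had no match in them.
RPS6KL1, chr14:74923261-74923510, minus strand: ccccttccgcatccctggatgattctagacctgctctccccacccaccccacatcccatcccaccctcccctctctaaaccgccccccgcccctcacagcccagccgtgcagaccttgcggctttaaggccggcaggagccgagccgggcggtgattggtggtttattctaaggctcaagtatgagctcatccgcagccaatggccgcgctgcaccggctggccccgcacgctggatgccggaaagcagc
MNS1, chr15:56465138-56465387, minus strand: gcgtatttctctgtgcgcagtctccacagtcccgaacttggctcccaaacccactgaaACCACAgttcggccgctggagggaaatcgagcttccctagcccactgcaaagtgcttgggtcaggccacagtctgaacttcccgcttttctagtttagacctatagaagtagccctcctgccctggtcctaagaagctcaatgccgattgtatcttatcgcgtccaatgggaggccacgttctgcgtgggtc
CAND2, chr3:12796430-12796679, plus strand: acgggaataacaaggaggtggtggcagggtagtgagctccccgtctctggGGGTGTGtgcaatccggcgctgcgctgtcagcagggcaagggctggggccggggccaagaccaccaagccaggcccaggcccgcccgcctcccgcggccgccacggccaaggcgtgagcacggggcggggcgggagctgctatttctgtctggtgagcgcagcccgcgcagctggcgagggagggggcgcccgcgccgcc
TMEM52, chr1:1919280-1919529, minus strand: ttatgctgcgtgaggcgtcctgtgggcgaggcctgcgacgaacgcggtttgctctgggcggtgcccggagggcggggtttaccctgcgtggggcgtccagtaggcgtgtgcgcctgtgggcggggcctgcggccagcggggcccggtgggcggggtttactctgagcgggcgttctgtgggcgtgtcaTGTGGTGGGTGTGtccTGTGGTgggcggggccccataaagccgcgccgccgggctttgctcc
SLC1A5, chr19:46788595-46788844, minus strand: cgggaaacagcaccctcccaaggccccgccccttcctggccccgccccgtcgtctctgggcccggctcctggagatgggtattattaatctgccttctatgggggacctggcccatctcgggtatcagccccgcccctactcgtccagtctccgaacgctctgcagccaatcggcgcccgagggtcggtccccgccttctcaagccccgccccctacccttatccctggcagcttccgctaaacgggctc
PARP12, chr7:140062952-140063201, minus strand: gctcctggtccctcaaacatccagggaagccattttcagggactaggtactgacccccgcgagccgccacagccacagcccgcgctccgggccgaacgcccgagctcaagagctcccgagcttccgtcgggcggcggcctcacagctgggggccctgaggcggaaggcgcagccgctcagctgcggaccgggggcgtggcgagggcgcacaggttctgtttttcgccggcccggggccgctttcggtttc

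In the TMEM52 stretch a RUNX match lies 62 bases before the start site, a KLF match 56 and a further RUNX match 46. The RUNX match of MNS1 lies 192 bases and the KLF match of CAND2 200 bases before the start site. Over whole windows of 300 bases, TGANTCA was found in 3 of the 96 windows at members (3.12%) and in 7.68% of all 34961 windows. At regions with 0 h peaks only it was in 2.98% of 168 windows and at regions with peaks in all 6 libraries in 4.77% of 11047, so a low share was not particular to members. AGATAA was found in 3.12% of the windows at members and 10.3% of all, CACACCC in 9.38 and 7.56%, TGTGGT in 6.25 and 13.1% and ACAGGAA in 2.08 and 7.05%. In the same order of motifs, the windows at regions with 0 h peaks only had 11.3, 10.7, 9.52 and 1.19%, and those at regions with peaks in all 6 libraries 4.87, 6.54, 9.15 and 5.78%. None of the 5 motifs was found in 81.2% of the member windows and 63.3% of all, and in 68.5 and 73.3% of the windows of these other classes. The windows at members had a median GC content of 71.3%, against 58.7% over all windows and 65.0% at regions with peaks in all 6 libraries, and a median of 30 CpG dinucleotides against 14 and 26. A match is a description of the letters and not a binding site, and no window covers the distal members.

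The members' H3K27ac was lower at each later time, and the larger part of the difference lay between 6 and 72 h. Their median level was 13.5 and 13.7 CPM (counts scaled to the library size with TMM factors) in the 0 h libraries, 8.96 and 8.79 CPM in the 6 h libraries and 2.43 and 2.26 CPM in the 72 h libraries. These values chose the members, through the peaks, so they are a description with no test. The median log2 fold change was -0.53 at 6 h against 0 h (quartiles -1.01 and -0.14), -1.82 at 72 h against 6 h (-2.25 and -1.27) and -2.28 at 72 h against 0 h (-3.11 and -1.63). Over all regions on these chromosomes the medians were 0.2, 0.02 and 0.19 in the same order. When the scaling factors were computed only on regions where all libraries of the antibody had a peak (shared-peak scaling below), the all-region median at 6 h was 0.54 and that of the members -0.17. With total counts they were 0.53 and -0.19. The members' median relative to that of all tested regions was -0.72 under all 3 scalings. Scaling shifts all regions by nearly the same amount, so this value could not differ and is no check of the scaling. The authors' deposited table gives the members medians of -0.55 at 6 h and -2.18 at 72 h, and 593 of the 606 had a value under 0 at 72 h. In bulk samples such as these, fewer cells carrying the mark and less of it in each cell cannot be told apart.

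At 436 members (71.9%) both 6 h libraries lay below both 0 h libraries, against 35.4% of all tested regions, and at 76 members (12.5%, against 43.4%) both lay above. At 590 members (97.4%) both 72 h libraries lay below both 0 h libraries, against 42.6% of all tested regions. The rule used the same libraries, so nothing is read from these shares. With shared-peak scaling both 6 h libraries lay below at 50.2% (24.3% of all) and above at 160 members (26.4%, against 54.9% of all), and with total counts above at 158 (26.1%, against 54.4%). The share below at 72 h was 93.4% with shared-peak scaling (30.3% of all). From 6 to 72 h both later libraries were lower at 591 members (97.5%, against 39.8% of all tested regions) and higher at 6 (0.99%, against 42.1%). The spread within the set was wide: 155 members had a log2 fold change under -1 at 6 h, 336 lay between -1 and 0 and 115 were at 0 or above.

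**Figure D1:**
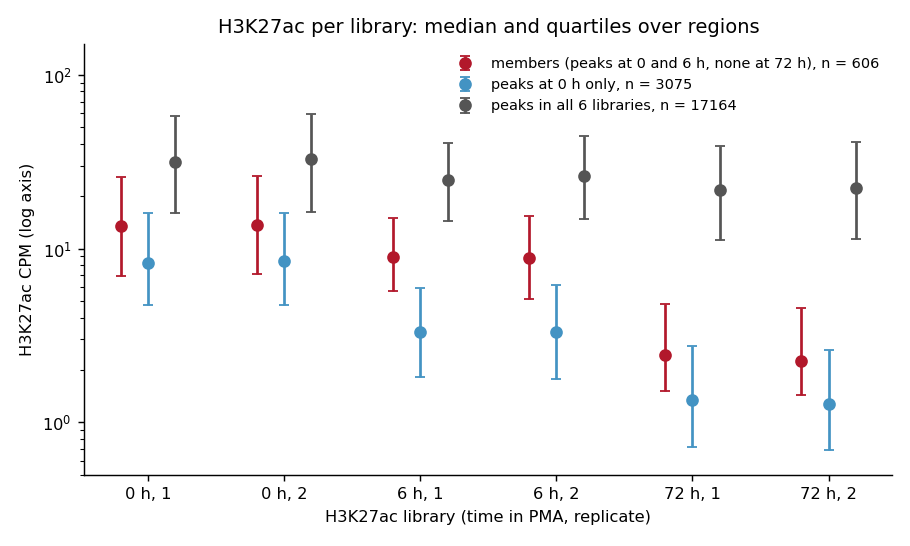
H3K27ac level per library (CPM, log axis) for the 606 members, the 3075 regions with peaks in both 0 h libraries only and the 17164 regions with peaks in all 6 libraries. Points are medians over regions and bars run between the quartiles; the members stand between the other groups at every time, from 13.5 CPM at 0 h to 2.26 CPM at 72 h.

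The members were a small remainder of a large set. Of 18382 regions with a peak in both 0 h and both 6 h libraries, 93.4% kept a peak in both 72 h libraries and 3.3% are the members. Another 612 (3.33%) had a peak in exactly 1 of the 72 h libraries and so lie just outside the rule; their medians were 14 and 13.9 CPM at 0 h, 10.8 and 10.3 CPM at 6 h and 3.82 and 3.57 CPM at 72 h, against 2.43 and 2.26 CPM for members at 72 h. For peak strength by the authors' scores, the strongest peak overlapping each member was taken. The whole lists count every peak, so the comparison can favour the members. The members' median −log10 q was 11.2 and 12.4 in the 0 h lists, where the whole lists had 10.6 and 11.4. In the 6 h lists it was 6.61 and 7.38, where the whole lists had 7.92 and 9.23. Member regions had a median width of 1053 bases, regions with 0 h peaks only 697 and regions with peaks in all 6 libraries 1721. Leaving out a library removes a condition of the rule, so all 606 members stay and their number cannot fall. It was 1229 without the first 6 h library, 950 without the second and 924 without the first 72 h library.

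The 6 members with the most H3K27ac over 0 and 6 h were all distal or within gene bodies. The strongest, chr6:135083381-135086880, lies outside any RefSeq gene span, 28.6 kb from HBS1L on one side and 94.4 kb from MYB, a transcription factor gene of blood progenitors, on the other. Its H3K27ac was 244 and 252 CPM at 0 h, 61.2 and 66.0 CPM at 6 h and 8.54 and 7.17 CPM at 72 h. The groups did not overlap, and most of the signal had gone by 6 h although a peak was still called.

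Jun and Rad21 fell in the same stretch. The Jun region inside it, chr6:135084367-135084966, had 16.5 and 21.1 CPM at 0 h, 5.9 and 7.3 CPM at 6 h and 3.09 and 2.59 CPM at 72 h. Jun fell by 1.50 on the log2 scale at 6 h (SE 0.26, edgeR quasi-likelihood test, Benjamini-Hochberg adjusted p = 0.000184) and further between 6 and 72 h (log2 fold change -1.23, SE 0.28, adjusted p = 0.003). Rad21 there was 31.0 and 22.8 CPM at 0 h and 7.0 and 5.47 CPM at 72 h (log2 fold change -2.10, SE 0.28, edgeR adjusted p = 1.91e-05). No CTCF region overlapped this member.

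A member 3.29 kb from PRKAA1, which encodes a catalytic subunit of the energy sensor AMPK, lay at chr5:40801662-40803580. H3K27ac was 131 and 132 CPM at 0 h, 41.6 and 44.4 CPM at 6 h and 5.83 and 4.84 CPM at 72 h. Jun was 48.3 and 39.4 CPM at 0 h, 15.2 and 15.5 CPM at 6 h and 7.09 and 6.32 CPM at 72 h, and the fall passed the test at 6 h (log2 fold change -1.51, SE 0.20, edgeR adjusted p = 1.46e-05) and again from 6 to 72 h (-1.20, SE 0.21, adjusted p = 0.000364). Rad21 went from 37.6 and 26.4 CPM to 9.38 and 6.79 CPM (log2 fold change -1.98, SE 0.28, adjusted p = 2.98e-05).

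The member at chr4:138436363-138439914 lies in a gene-poor stretch, 12018 bases from the non-coding gene LINC00499 and 194 kb from SLC7A11, the cystine transporter gene. Its H3K27ac went from 138 and 130 CPM at 0 h through 24.8 and 27.2 CPM to 4.02 and 3.2 CPM at 72 h. Jun there was 15.6 and 18.1, then 5.67 and 7.48, then 1.43 and 1.74 CPM, and both steps passed the test (log2 fold change -1.34 at 6 h, edgeR adjusted p = 0.000607; -2.06 from 6 to 72 h, adjusted p = 5.16e-05). The lowest Rad21 log2 fold change that the rule names was here, from 7.55 and 7.39 CPM to 1.04 and 0.754 CPM (log2 fold change -3.01, SE 0.49, adjusted p = 0.000141), at counts of 48 and 35 against 7 and 4.

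At the other 3 there was little of the factors or no region to test. The member in the span of SETDB2, a histone methyltransferase gene, at chr13:49445977-49448629 had 102 and 103, 45.1 and 55.2, and 20.2 and 23 CPM of H3K27ac at the 3 times. The member in ELOVL5, a fatty acid elongase gene, at chr6:53310070-53312609 had 91.7 and 94.3, 52.7 and 53.5, and 13.7 and 11.5 CPM. Neither overlapped a tested Jun, CTCF or Rad21 region; no value of these factors is given there. At the member in C20orf203 (chr20:32631375-32633755), H3K27ac was 94.3 and 103, 58.2 and 70.6, and 21.4 and 19.4 CPM, while Jun was 3.5 and 3.87 CPM at 0 h, 6.13 and 7.12 CPM at 6 h and 2.76 and 1.78 CPM at 72 h; only the step from 6 to 72 h passed the test (log2 fold change -1.55, SE 0.33, edgeR adjusted p = 0.00167).

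**Figure D2:**
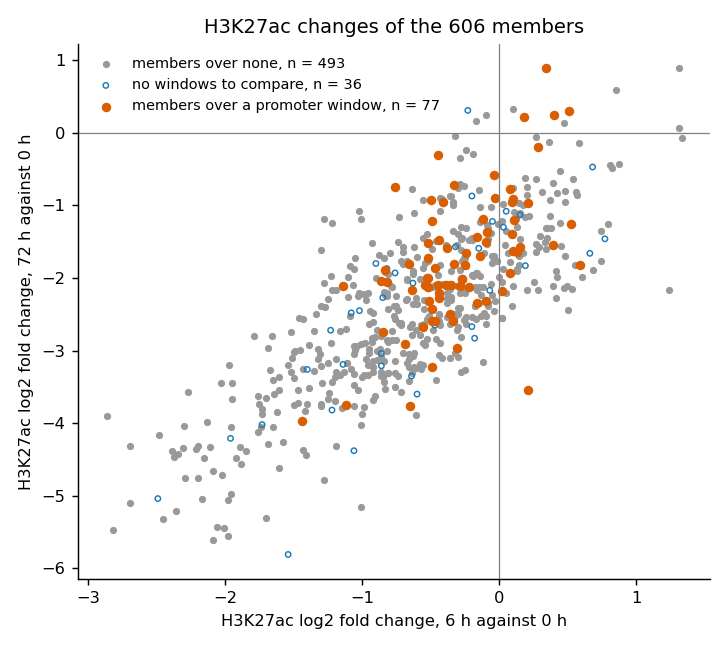
H3K27ac log2 fold change at 6 h (x axis) and 72 h (y axis), both against 0 h, 1 point per member; the 77 members over a promoter window are in orange, the 493 over none in grey and the 36 on chromosome 8, with no windows to compare, as open blue circles. Of the 606 points, 491 lie left of 0 at 6 h and 12 lie at or above 0 at 72 h.

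A few members had no peak at 72 h without a lower level. At 12 members the log2 fold change at 72 h was 0 or above. The member over the promoter of VAC14, a scaffold of the PIKfyve lipid kinase complex, had 13.2 and 11.9 CPM at 0 h, 15.5 and 16.2 CPM at 6 h and 22.6 and 24.0 CPM at 72 h, and a member in LTBP1, which encodes a binding protein of latent TGF-beta, had means of 8.88, 21.9 and 16.5 CPM. At both, the 72 h libraries lay above the 0 h ones although no 72 h list held a peak there. The promoter members of ENDOD1 (12.3, 17.6 and 15.1 CPM on average at the 3 times), CSRP1 (5.77, 6.65 and 6.72 CPM) and MYO1D (15.7, 20.6 and 18.6 CPM) also had higher means at 72 h than at 0 h. These 5 were chosen after their values were seen. For them only the peak call is absent at 72 h, not the counts.

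Members lay mostly within genes and away from starts. A RefSeq gene span was overlapped by 476 of 606 (78.5%), against 71.0% of regions with 0 h peaks only and 84.5% of regions with peaks in all 6 libraries. Leaving out chromosome 8, which the promoter table does not hold, 77 of 570 members (13.5%) overlapped a promoter window, against 4.87% of regions with 0 h peaks only, 43.1% with peaks in all 6 libraries and 11.7% of all regions. The median distance to the nearest start site was 15917 bases for members, 22163 for regions with 0 h peaks only and 2435 for regions with peaks in all 6 libraries. Another member lay within 10000 bases of 12 of 606 members (1.98%). A region with 0 h peaks only lay that near 63 members, and a region with peaks in all 6 libraries 201 (33.2%). The classes differ in size (606, 3075 and 17164 regions), so these counts are not compared with each other. A member lay within 10000 bases of 2.41% of regions with 0 h peaks only and 1.4% of regions with peaks in all 6 libraries. A low share with a member nearby was thus not particular to members.

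At promoter members the median of mean levels was 10.6 CPM at 0 h, 8.75 CPM at 6 h and 2.65 CPM at 72 h, while the 493 over no window had 14.0, 9.0 and 2.27 CPM. The 36 members on chromosome 8 are in neither group. Leaving out chromosome 8, 3.47% of the members with an H3K27ac log2 fold change under -1 at 6 h lay within 1000 bases of a start site, against 26.7% of those between -1 and 0 and 24.1% of those at 0 or above. The highest promoter members at 0 h were DUT, which makes the enzyme that clears dUTP (43.6 and 44.0 CPM at 0 h, 28.3 and 32.5 at 6 h, 10.2 and 9.98 at 72 h), and LIN54, a subunit of the DREAM cell cycle complex (45.1 and 40.3, 29.7 and 30.8, 17.4 and 19.2 CPM). The HK2 member, at the start of the gene of hexokinase, was level to 6 h and lower later (20.4 and 22.7, 21.3 and 24.6, 11.1 and 11.8 CPM). No test was made on these, and they were chosen after their values were seen.

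Jun was measured independently of the rule, and it fell at most of the members' Jun regions by 72 h. A Jun region overlapped 400 of the 606 members, and 427 Jun regions at 397 members passed the filter on low counts. At 72 h against 0 h, 369 of the 427 were called lower and 0 higher (edgeR quasi-likelihood test on all 132947 tested Jun regions, Benjamini-Hochberg adjusted p under 0.05). Over all tested Jun regions 53.7% were called, 25.7% lower and 28% higher, against 86.4% at the members. At regions with 0 h peaks only 87.5% of 1389 Jun regions were called lower. At regions with peaks in all 6 libraries it was 60.4% of 20741, so a high share was not particular to members. DESeq2 called 341 lower and 0 higher. With shared-peak scaling, which put the median of all Jun regions at 0.96, 239 were lower and 7 higher. The regions that passed the filter include those that passed through the 0 h libraries alone, and the median of the 427 is given only as a description.

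At 6 h, 170 Jun regions were called lower and 5 higher (41.0% called, against 25.3% of all tested Jun regions). From 6 to 72 h, 186 were called lower and 0 higher (43.6%, against 26.2% of all). Of these 427 regions, 61 were called lower in both steps, 109 only from 0 to 6 h, 120 only from 6 to 72 h and 132 in neither step. The other 5 were called higher at 6 h and lower from 6 to 72 h. A step without a call is not a step without a fall. The log2 fold change was under 0 at 360 of the 427 at 6 h and at 406 from 6 to 72 h. For the second step the count was 66 without the second 72 h library, 83 without the first, 120 without the second 6 h library, and 59 lower with 9 higher under shared-peak scaling.

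In level, the median Jun region at members had 7.0 and 7.45 CPM at 0 h, 4.09 and 4.2 CPM at 6 h and 2.33 and 2.21 CPM at 72 h. The counts behind these medians were 48 and 52, 18 and 23, and 49 and 52 per region, so the 6 h libraries were the thinnest. The median log2 fold changes were -0.77 at 6 h, -0.90 from 6 to 72 h and -1.61 at 72 h against 0 h, where all tested Jun regions had 0.06, 0.02 and 0.17. The distance from the all-region median at 72 h was -1.78, and it was -1.78 also with total counts and with shared-peak scaling, where the members' own median was -1.05 and -0.82. A change of scaling shifts all regions by nearly the same amount, so this distance could not differ and is no check of the scaling.

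At the regions with H3K27ac peaks at 0 h only, 62.7% of 1389 Jun regions were called at 6 h and 18.6% from 6 to 72 h, with medians of -1.42 and -0.50, against 41.0 and 43.6% and medians of -0.77 and -0.90 at the members. By 72 h the medians stood at -1.89 and -1.61. At regions with peaks in all 6 libraries the medians were -0.40, -0.46 and -0.85. The groups were chosen on H3K27ac, not on Jun, but no test of the difference between them was made, and these are medians and counts side by side.

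**Figure D3:**
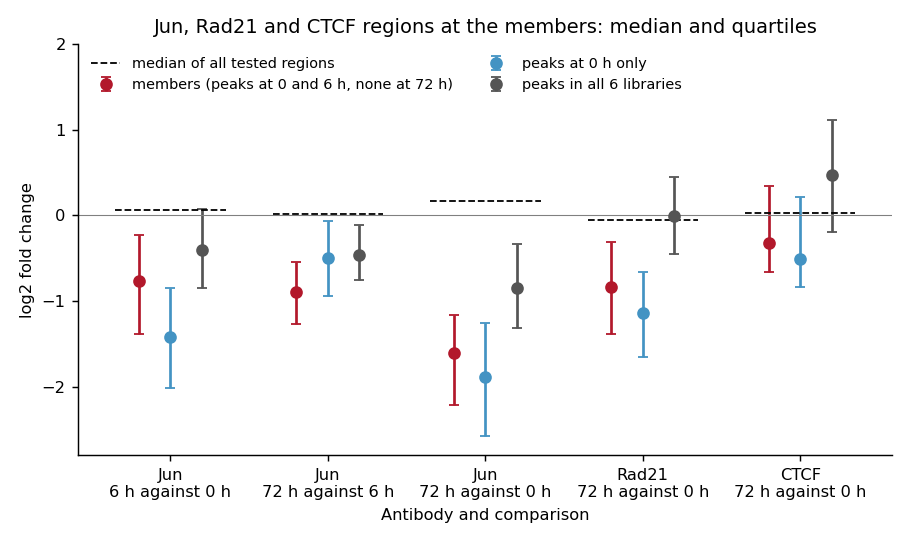
Log2 fold changes of Jun, Rad21 and CTCF regions at members, at regions with 0 h peaks only and at regions with peaks in all 6 libraries; points are medians over tested regions, bars run between the quartiles and dashed lines mark the median of all tested regions of that antibody. At members the Jun medians were -0.77 up to 6 h and -0.90 after it, and at the regions with 0 h peaks only -1.42 and -0.50.

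The 4 largest Jun falls at 72 h, by the rule for named regions, were at members in AAGAB, near BIRC2, in PCTP and near TEX15. At the member in AAGAB (chr15:67207336-67209223) Jun was 8.31 and 7.17 CPM at 0 h, 2.72 and 1.28 CPM at 6 h and 0.428 and 0.467 CPM at 72 h (log2 fold change -4.08, SE 0.41, edgeR adjusted p = 1.01e-07). H3K27ac there went from 22.7 and 24.5 CPM through 9.94 and 9.5 CPM to 0.905 and 0.801 CPM. Both signals were lower after each interval, and for Jun each interval passed the test (adjusted p = 0.0015 and 0.00782).

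The member 6347 bases from BIRC2, which encodes an inhibitor of apoptosis, lay at chr11:102385018-102387311. Jun was 16.9 and 17.9, 4.09 and 2.55, and 1.24 and 1.15 CPM (log2 fold change at 72 h -3.86, SE 0.27, edgeR adjusted p = 3.94e-09), and H3K27ac was 86.5 and 89.8, 22.3 and 23.3, and 6.84 and 7.03 CPM. At the member in PCTP, the gene of a phosphatidylcholine carrier (chr17:55815403-55818110), Jun was 36.5 and 30.2, 6.36 and 7.48, and 2.38 and 2.33 CPM (-3.82, SE 0.22, adjusted p = 9.65e-10), with H3K27ac at 69.9 and 84.5, 13.9 and 10.3, and 1.85 and 2.66 CPM. In these the 3 times did not overlap for either signal.

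At the member 19540 bases from TEX15 (chr8:30932549-30934473), a gene of the germ line, Jun was 16.2 and 13.3 CPM at 0 h and 2.72 and 0.912 CPM at 6 h, and 1.14 and 1.27 CPM at 72 h. Almost all of its fall came by 6 h (log2 fold change -3.08, SE 0.38, edgeR adjusted p = 5.46e-06), and the later step did not pass the test (-0.52, adjusted p = 0.459). The same was seen at the promoter of RPS6KL1, a kinase-like gene whose sequence is given above (chr14:74922978-74923587): Jun was 27.1 and 18.9, 3.18 and 3.1, and 2.19 and 1.99 CPM (-2.87 at 6 h, adjusted p = 7.13e-07; -0.58 from 6 to 72 h, adjusted p = 0.233). H3K27ac at this promoter was 3.92 and 3.16 CPM at 0 h, 3.01 and 2.81 CPM at 6 h and 0.905 and 0.728 CPM at 72 h, so Jun was low at 6 h while H3K27ac was not far below its start.

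The other falls at 6 h named by the rule lay 36.7 kb from TMTC2 (chr12:83171546-83174803) and between CYP3A4 and CYP3A43, genes of drug-metabolising cytochromes (chr7:99806161-99807914). Jun at the first was 12.0 and 12.8 CPM at 0 h and 0.681 and 2.92 CPM at 6 h, from 3 and 16 counts (log2 fold change -2.69, SE 0.40, edgeR adjusted p = 3.62e-05). At the second it was 10.6 and 18.3 CPM and then 2.5 and 2.19 CPM (-2.63, SE 0.36, adjusted p = 1.59e-05). The first had 121 and 117 CPM of H3K27ac at 0 h and 19.2 and 14.9 CPM at 6 h, and the second 33.9 and 33.5 and then 7.21 and 6.45 CPM, so H3K27ac was low at 6 h at both.

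Jun rose at 6 h at 5 of the 427 regions, where 13.1% of all tested Jun regions were called higher, and all 5 fell again from 6 to 72 h. The number of rises was 2 with DESeq2, 3 without the first 0 h or the second 6 h library, 11 with shared-peak scaling and 13 with total counts. In CMIP (chr16:81526173-81528295) Jun was 2.19 and 1.86 CPM at 0 h, 7.49 and 7.66 CPM at 6 h and 2.09 and 1.83 CPM at 72 h; the rise (log2 fold change 1.9, SE 0.38, edgeR adjusted p = 0.000749) and the fall (-1.95, SE 0.32, adjusted p = 0.000182) both passed the test. H3K27ac stayed near its start up to 6 h, with 27.8 and 34.9 CPM at 0 h and 30.9 and 29.4 CPM at 6 h, and was 12.9 and 11.3 CPM at 72 h.

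The other rises that the rule names were smaller. At AFG2B (chr15:45403260-45404013) Jun was 3.94 and 7.31, 11.1 and 14.8, and 5.75 and 5.6 CPM (log2 fold change at 6 h 1.21, SE 0.29, edgeR adjusted p = 0.00387), in BMERB1 (chr16:15546325-15547192) 1.9 and 2.72, 5.67 and 5.29, and 3.38 and 1.57 CPM (1.24, SE 0.45, adjusted p = 0.0454), and in TCF20, a transcriptional coregulator gene (chr22:42300029-42301172), 4.08 and 2.44, 7.49 and 6.93, and 2.76 and 2.89 CPM (1.14, SE 0.35, adjusted p = 0.0197). Each of these 3 calls was lost when 1 library was left out: AFG2B without the first 0 h library (adjusted p = 0.072) or the second 6 h library (adjusted p = 0.0805), TCF20 without the second 0 h library (adjusted p = 0.158) or either 6 h library (adjusted p = 0.0519 and 0.0649), and BMERB1 without any 1 of the 4 (adjusted p from 0.0779 to 0.207). DESeq2 did not call BMERB1 and TCF20 (adjusted p = 0.156 and 0.11).

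**Figure D4:**
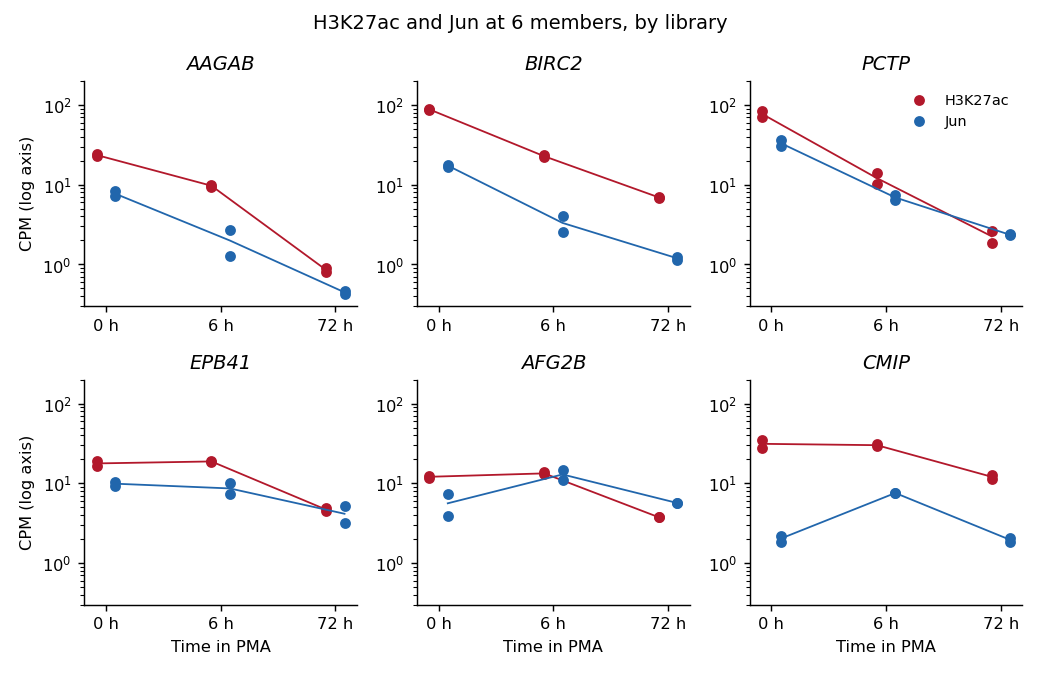
H3K27ac (red) and Jun (blue) in CPM on a log axis at members in or near AAGAB, BIRC2, PCTP, EPB41, AFG2B and CMIP; each point is 1 library, lines join the means of 2 libraries, and the times are evenly spaced on the x axis. In the upper row both signals decline in both steps, at EPB41 both hold to 6 h and are lower at 72 h, and at AFG2B and CMIP Jun peaks at 6 h.

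Members with a lower H3K27ac fold change also tended to have a lower Jun fold change. Over 397 members with a tested Jun region (the one with the highest mean CPM where there were several), Pearson's r between the H3K27ac and the Jun log2 fold change was 0.495 at 6 h (Spearman's rho 0.52), 0.573 at 72 h (rho 0.562) and 0.347 from 6 to 72 h (rho 0.358). These are correlations over regions measured in the same few libraries of each antibody. Regions are not replicates, so the correlations are no test. In the members with an H3K27ac log2 fold change under -1 at 6 h, the median Jun change was -1.34 up to 6 h and -0.83 after it (117 members). In those between -1 and 0 it was -0.62 and then -0.90 (197 members), and in those at 0 or above -0.34 and then -0.96 (83 members).

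**Figure D5:**
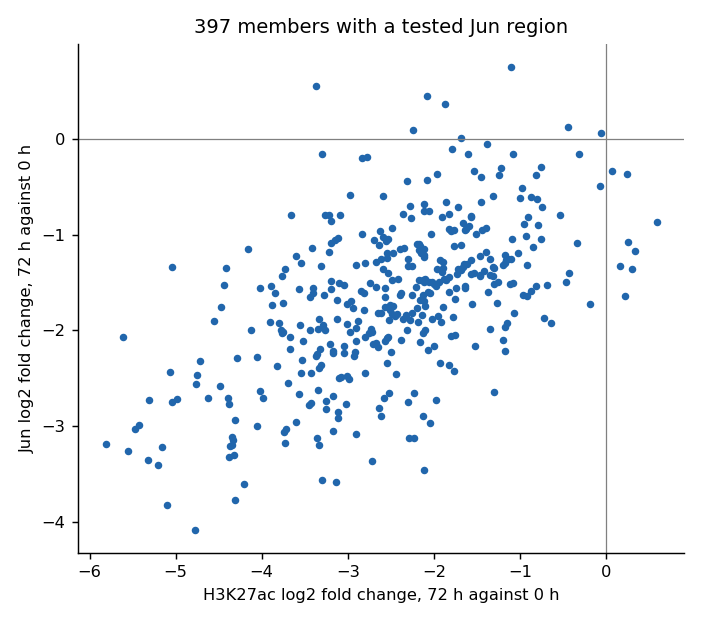
H3K27ac (x axis) and Jun (y axis) log2 fold changes at 72 h against 0 h at the 397 members with a tested Jun region, 1 point per member. The points rise from lower left to upper right (Pearson's r 0.573) and nearly all lie below 0 on both axes.

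Cohesin was measured at 0 and 72 h only. A Rad21 region overlapped 373 members, and 406 Rad21 regions were tested at 365 of them. Of the 406, 123 were called lower and 4 higher at 72 h (31.3% called, against 23.3% of all 83750 tested Rad21 regions, of which 7.91% were lower and 15.4% higher). The median level was 5.27 and 5.28 CPM at 0 h and 2.98 and 3.02 CPM at 72 h, with a median log2 fold change of -0.84 against -0.05 over all tested Rad21 regions. At regions with 0 h peaks only the median was -1.14, and at regions with peaks in all 6 libraries it was -0.01. The number of calls was 46 with DESeq2 (0 higher), 53 without the first 0 h library, 51 without the first 72 h library and 58 without the second.

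Apart from the LINC00499 member, the largest Rad21 falls were 13.1 kb from RYBP, a Polycomb subunit gene (chr3:72459763-72461825), and in DDI2, a protease gene (chr1:15627297-15628966). Rad21 at the first was 12.7 and 7.39 CPM at 0 h and 1.19 and 2.26 CPM at 72 h (log2 fold change -2.58, SE 0.43, edgeR adjusted p = 0.000186), and at the second 33.8 and 24.9 CPM and then 3.57 and 7.92 CPM (-2.39, SE 0.32, adjusted p = 1.65e-05). H3K27ac in DDI2 was 36.5 and 33.2, 19.2 and 20.1, and 3.95 and 4.7 CPM.

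The rises were small. A Rad21 region at the edge of the PCTP member, where Jun fell, went from 4.72 and 6.97 CPM to 10.7 and 11.9 CPM (log2 fold change 0.97, SE 0.32, edgeR adjusted p = 0.0301). At the start of LRRC56 (chr11:518901-519363) it was 6.13 and 10.6 and then 17.4 and 13.6 CPM (0.92, SE 0.30, adjusted p = 0.0285), and 153 bases from the transfer RNA gene TRN-GTT1-1 (chr1:161539594-161540087) 15.9 and 15.0 and then 25.9 and 26.4 CPM (0.76, SE 0.24, adjusted p = 0.0273). None of the 3 was called by DESeq2 (adjusted p = 0.179, 0.155 and 0.0947), with total counts as library size (0.07, 0.0728 and 0.079), or without the first 72 h library (0.123, 0.315 and 0.216) or the second (0.182, 0.0554 and 0.198). PCTP and LRRC56 were also not called without the first 0 h library (0.0941 and 0.105).

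CTCF was called at few of the members. A CTCF region overlapped 157 members and 157 CTCF regions at 150 members were tested. At 6 h, 2 were called, 1 in each direction (1.27%, against 2.65% of all 58156 tested CTCF regions), and at 72 h 9 were called lower and 0 higher (5.73%, against 6.79% of all). The median log2 fold change at 72 h was -0.32, and 0.02 with shared-peak scaling. With total counts as library size, 3 were higher and 4 lower. The number called at 72 h was 1 to 3 when any 1 library was left out, 4 with DESeq2, 3 with shared-peak scaling, 14 with a replicate block and 27 (24 lower and 3 higher, of 150) in a fit of these 2 time points alone. From 6 to 72 h 3 were called, all lower (1.91%, against 2.18% of all, of which 1.73% lower). In the main test the members' shares called in either direction were near or below those of all regions. At 72 h the lower calls were 5.73%, against 2.72% of all, and 4.07% of all were called higher. The count at 72 h moved with the settings, and none of these counts is read as a result about the members.

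The rule names the CTCF regions with the lowest log2 fold changes at 72 h. One lies where TANGO2 and ARVCF overlap (chr22:20015999-20017154) and went from 68.8 and 84.4 CPM at 0 h to 25.2 and 21.2 CPM at 6 h and 12.7 and 14.5 CPM at 72 h (log2 fold change -2.48, SE 0.27, edgeR adjusted p = 0.000682). H3K27ac there was 44.4 and 50.7, 34.1 and 26.0, and 5.25 and 5.32 CPM. The other is in PLAUR, the urokinase receptor gene (chr19:43651835-43652474), with 30.3 and 15.5, 21.4 and 25.6, and 3.46 and 4.92 CPM (-2.43, SE 0.35, adjusted p = 0.00296, and 0.058 without the first 0 h library). There CTCF was in place at 6 h, and at 72 h it was low.

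By peak calls, 180 of 606 members (29.7%, exact binomial 95% interval 26.1 to 33.5%) held a Jun peak of both 0 h libraries, 11.1% (8.67 to 13.8%) one of both 6 h libraries and 24.8% (21.4 to 28.4%) one of both 72 h libraries. All regions on these chromosomes had 22.6, 16.4 and 53.8%. The share at 72 h is not below that at 6 h although median Jun levels were. From 6 to 72 h the median Jun log2 fold change was -0.90 in the main fit and -0.27 with shared-peak scaling. The 72 h lists were the longest (92329 and 99102 peaks, against 23946 and 35376 at 6 h) from the deepest libraries, and their part in this was not tested. Rad21 peaks of both libraries were in 24.3% (20.9 to 27.9%) of members at 0 h and 5.94% (4.2 to 8.13%) at 72 h, and CTCF peaks in 9.24, 6.11 and 7.26% at the 3 times. All regions on these chromosomes had 13.9 and 12.6% for Rad21 and 6.86, 4.56 and 7.98% for CTCF. Regions with 0 h peaks only had 14.4 and 1.89% for Rad21 and 4.29, 2.47 and 3.71% for CTCF. A lower Rad21 share at 72 h was thus not particular to members. At 0 h, 77 members held both Jun and Rad21 peaks, 103 Jun without Rad21, 70 Rad21 without Jun, 33 CTCF with Rad21, and 333 none of the 3. Intervals cover counting error only.

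At the promoter members, 46 Jun regions were tested. Of these, 14 were called lower at 6 h, where 12.2% of all tested Jun regions were, and 37 at 72 h, where 25.7% of all were, with 0 higher at either time and medians of -0.44 and -1.48. Of 355 at the members over no promoter window, 142 and 309 were lower (medians -0.82 and -1.65). Rad21 was tested at 54 regions of promoter members, of which 3 were called lower and 2 higher at 72 h (7.91 and 15.4% of all tested Rad21 regions), with a median of -0.24 against -0.84 at all members' Rad21 regions. At the SLC1A5 promoter, the gene of a glutamine transporter, Jun was 10.1 and 9.17, 7.72 and 6.57, and 3.8 and 3.86 CPM (log2 fold change -0.44 at 6 h, edgeR adjusted p = 0.257; -1.32 at 72 h, SE 0.24, adjusted p = 0.000107), and H3K27ac 28.6 and 35, 21.5 and 23.5, and 17 and 16.7 CPM (log2 fold change at 72 h -0.92, and -0.31 with shared-peak scaling). At the PARP12 promoter Jun was 10.5 and 8.31, 6.13 and 7.12, and 2.66 and 3.01 CPM (-1.72 at 72 h, SE 0.26, adjusted p = 1.3e-05), while H3K27ac was 11 and 10.2, 12.3 and 13.4, and 8.87 and 9.72 CPM. The H3K27ac log2 fold change at PARP12 at 72 h was -0.19, and it turned to 0.04 with total counts and 0.42 with shared-peak scaling.

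Jun was called lower at both of these promoters at 72 h in the main fit. The Jun calls at these 2 and at the promoters below were not repeated under other scalings. With shared-peak scaling the median Jun log2 fold change at members at 72 h was -0.82, against -1.61 in the main fit. At TMEM52, whose window holds the KLF and RUNX matches, Jun was 25.2 and 23.5, 17.7 and 12.8, and 7.99 and 5.05 CPM (log2 fold change -1.91 at 72 h, SE 0.23, edgeR adjusted p = 7.18e-07) and H3K27ac 7.67 and 5.9, 6.65 and 7.09, and 1.38 and 1.6 CPM. At CAND2 Jun was 7.15 and 7.6, 2.95 and 2.37, and 2.43 and 0.891 CPM (-2.16, SE 0.37, adjusted p = 5.46e-05), and at MNS1 4.23 and 7.88, 4.54 and 1.46, and 1.38 and 0.976 CPM (-2.36, SE 0.42, adjusted p = 8.53e-05). At the start of ME1, the cytosolic malic enzyme gene (chr6:83431218-83432210), Jun was 4.96 and 7.31, 7.49 and 5.47, and 2.28 and 1.53 CPM (0.06 at 6 h, adjusted p = 0.916; -1.75 from 6 to 72 h, adjusted p = 0.000837), with H3K27ac at 14.7 and 12.8, 12.2 and 10.1, and 1.59 and 1.93 CPM. ME1 was chosen after its values were seen.

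The 7 gene lists held 4 members in all. Members were 2.19% of the 27693 regions with a peak in both 0 h libraries, and at that share few would lie at so few genes, so the low counts are not a result about the members. Of the 7 gene lists, those of erythroid transcription factors (20 genes), heme synthesis and iron (22), globins (12) and proliferation and cell cycle (26) had no member in a gene span or with the gene as its nearest within 50000 bases. The spans of the erythroid transcription factor genes held 71 regions with peaks in both 0 h libraries, of which 16 had 0 h peaks only, 29 had peaks in all 6 libraries and 0 were members. The red cell list (26 genes) had 1 member, the megakaryocyte list (26) 2 and the AP-1 and early response list (23) 1. Of the 3 Jun regions tested at these 4 members, 1 was called lower at 72 h and 0 higher (25.7 and 28% of all tested Jun regions).

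That one was at a start site of EPB41, which encodes the red cell skeleton protein 4.1 (chr1:28913778-28914826). H3K27ac was 16.6 and 19.0 CPM at 0 h, 18.6 and 19.1 CPM at 6 h and 4.89 and 4.48 CPM at 72 h, and Jun 9.33 and 10.5, 9.99 and 7.3, and 5.14 and 3.18 CPM (log2 fold change -0.21 at 6 h, edgeR adjusted p = 0.646; -1.26 at 72 h, SE 0.27, adjusted p = 0.000452). The 72 h call was not made with shared-peak scaling (adjusted p = 0.124). In the main scaling H3K27ac was near its start at 6 h and no Jun change was called by then. Both signals were lower at 72 h in that scaling.

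In the first of the megakaryocyte genes, MEIS1, a homeobox factor of blood stem cells and megakaryocytes, the member (chr2:66464963-66465780) had 12.3 and 11.3, 6.44 and 5.76, and 3.11 and 2.0 CPM of H3K27ac and no tested Jun region. The member 5135 bases from RAB27B, which acts in granule secretion (chr18:54711792-54712721), had 5.74 and 4.53, 5.67 and 7.19, and 1.63 and 1.75 CPM, and its Jun values of 3.06 and 6.45, 12.5 and 6.57, and 4.61 and 3.9 CPM did not pass the test against 0 h at 6 h (edgeR adjusted p = 0.0505) or 72 h (adjusted p = 0.701). The member over JUNB, which encodes an AP-1 subunit (chr19:12791548-12792204, overlapping the HOOK2 span too), had 23.6 and 25.7, 20.2 and 19.9, and 14.4 and 14.6 CPM of H3K27ac, and Jun at its edge was 5.54 and 5.88, 6.36 and 6.93, and 5.23 and 4.12 CPM, with no call at 6 h or 72 h (adjusted p = 0.64 and 0.371).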

How the data were processed

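CUT&RUN libraries of H3K27ac, Jun, CTCF and Rad21 from K562 cells were analysed from the deposited region tables and peak lists. The region tables hold raw counts per region and library, as deposited by the authors, beside their own log2 fold changes against 0 h, which the authors made with a tool not given in the sources used here. Peaks were called per library, and the deposited lists give fold enrichment and −log10 q as the caller wrote them. The submitters' processing notes name Trim Galore 0.4.3, BWA 0.7.17, SAMtools 1.9, deepTools 3.0.1, MACS2 and both hg19 and hg38; region names and the last position on chromosome 20 (64329816) match GRCh38, the build used here. Printed starts are 1-based. Fragments outside the regions are not in the totals.

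Counts were tested with edgeR 4.0.16 (R 4.3.3): filterByExpr, TMM factors, quasi-likelihood fit over all time points of an antibody, Benjamini-Hochberg adjustment over all regions passing the filter, threshold 0.05. Standard errors are the log2 fold change divided by the square root of F. A Jun, CTCF or Rad21 region belongs to a member when they overlap by 1 base. The fit was also run on simulated counts in which few regions changed. In the data 53.7% of tested Jun regions were called at 72 h against 0 h, so that run is no check of these calls or of the scaling. Named regions are the 6 members with most H3K27ac over 0 and 6 h, those with the largest called changes of Jun, Rad21 and CTCF whose 2 groups of libraries do not overlap, and members at listed genes; promoters named beyond these were chosen after their values were seen. Members and gene lists were chosen with earlier results of these data known. Replicate numbers were not taken as pairs: the correlation of same-numbered deviations was -0.00841 to 0.124. Alternatives were DESeq2 1.42.0, other scalings and filters, a replicate block, stricter peaks and overlaps, and leaving out each library. No genome sequence was used, so motifs were counted in RefSeq promoter windows only. The check of H3K27ac near marker genes of other blood cells is not reported here.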

Additional observations from a re-analysis of the deposited data

Results flagged for a closer look

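At these named regions the change between 6 and 72 h passed the test in the main fit (edgeR quasi-likelihood test, adjusted p under 0.05). That test was not repeated for them under other scalings or with a library left out. Over the members' Jun regions, calls in this step were 186 in the main fit and 68 with shared-peak scaling. Regions outside the gene lists were named for changes in these same libraries. Jun was lower at 72 h than at 6 h at AAGAB (log2 fold change -2.09), CMIP (-1.95), PCTP (-1.56), BIRC2 (-1.44), TCF20 (-1.35), AFG2B (-1.2), BMERB1 (-1.15), RAB27B (-1.14) and EPB41 (-1.05). At AAGAB, PCTP and BIRC2 Jun had already fallen by 6 h, at CMIP, TCF20, AFG2B and BMERB1 it had risen by 6 h, and at RAB27B and EPB41 the change at 6 h was not called. CTCF at PLAUR was lower at 72 h than at 6 h (-2.44), with no call at 6 h against 0 h.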

How the results depend on the processing

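Of the summary results under their alternatives, 153 values stayed near the main one, 63 moved and 1 reversed; of the tests of named regions with a call, 187 kept their call and 27 lost it, and the 22 of the uncalled regions at RAB27B and JUNB made none. The cause was not tested for any of them, other than that stricter filters and stricter peaks leave fewer regions. With total counts as library size, the H3K27ac medians at members were -0.19 at 6 h and -2.05 at 72 h against 0 h, the Jun median was -1.05 at 72 h and -0.53 from 6 to 72 h, Jun calls from 6 to 72 h were 105 and CTCF calls at 6 h 4. With shared-peak scaling the H3K27ac medians were -0.17, -1.68 and, from 6 to 72 h, -1.56, the Jun medians -0.82 and -0.27, Jun calls from 6 to 72 h 68, CTCF calls at 72 h 3 and the CTCF median at 72 h 0.02, a reversed sign. A mean count of at least 50 left 96, 162 and 109 Jun calls (6 h, 72 h, and 72 h against 6 h), 1 and 2 CTCF calls and 34 Rad21 calls. DESeq2 called 4 CTCF and 46 Rad21 regions at 72 h, and a fit of only the 2 time points called 27 CTCF regions. Members with −log10 q of at least 5 at 0 and 6 h numbered 381, with 102 and 232 Jun calls at 6 and 72 h, 1 CTCF call at 6 h and 80 Rad21 calls; asking for a peak of only 1 library at each time gave 2395 members. Peaks with −log10 q of at least 5 gave shares of 21.3% for Jun at 72 h and 20% for Rad21 at 0 h, and an overlap of at least 0.5 of the shorter interval gave 4.29 and 4.79% for CTCF at 6 and 72 h and 1 CTCF call at 6 h.

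Leaving out 1 library gave 668 to 1229 members, an H3K27ac median at 72 h from -2.40 to -2.26, 66 to 164 Jun calls from 6 to 72 h, 0 to 5 and 1 to 3 CTCF calls at 6 and 72 h, 51 to 118 Rad21 calls and a Rad21 median from -0.84 to -0.57. With 1 library in place of both, Jun peak shares were 35.8 to 40.1, 13.4 to 22.4 and 30.9 to 31.4% at the 3 times, CTCF shares 9.9 to 15.2, 6.93 to 9.74 and 8.58 to 14.4%, and Rad21 shares 36.1 to 37.3 and 10.2 to 12.5%. With the replicate number as a block, Jun calls were 164, 362 and 180, Rad21 calls 132 and CTCF calls at 72 h 14. The whole-region motif alternative was not run. The thin 6 h Jun libraries and the CTCF libraries limit what small changes could be called.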

Other observations

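The authors' deposited table also assigns each region a class by name. Of the 606 members it labels 232 upLate, 22 upEarly, 81 downEarly, 14 downLate and 257 static. All 254 members labelled up have a log2 fold change under 0 at 72 h in the same deposited table, and 246 have one under 0 at both times. Over all regions, the medians of the authors' log2 fold change at 72 h are 2.88 for upLate, 2.84 for upEarly, 2.82 for downEarly, 2.85 for downLate and -0.21 for static in the authors' deposited table. The classes were therefore not used here.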
